A study of Mus musculus and Homo sapiens with 59 samples.

Results

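MLKL is the executioner protein of necroptosis: once oligomerized it moves to the plasma membrane and permeabilizes it, and calcium from outside the cell then flows in. Calcium entry is known to switch on immediate early genes, NFAT and CREB targets and kinase pathways such as ERK, and membrane damage by MLKL is also known to be repaired with the help of calcium. The libraries described here show what a fibroblast still changed in its RNA when MLKL was dimerized in medium without calcium.

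They are 4 of the 59 libraries of the series, taken as all those whose labels name calcium-free DMEM: 2 of cells given AP20187 and 2 of untreated cells. AP20187 (100 nM, 1 h) is a cell-permeable compound that joins proteins carrying an engineered binding domain. The cells are NIH3T3, an immortalized mouse embryonic fibroblast line, and carry a construct in which an amino-terminal fragment of human MLKL is fused to that domain (2Fv), so that the compound replaces the upstream kinases. Beside them stand the same construct cells in complete DMEM with and without AP20187 (2 libraries each) and parental NIH3T3 cells, without the construct, in complete DMEM with and without AP20187 (2 each). A further pair of experiments on construct cells in complete DMEM, labelled siCTR and noko, also had 2 libraries with and 2 without AP20187 each. The series also holds groups labelled siPKC and p65ko. By these labels siCTR is the control siRNA group of a PKC knockdown and noko the control without knockout of a p65 knockout. They are thus not plain repeats of the complete-medium experiment, and their values are given where they bear on a named gene. No parental library in calcium-free medium was used here, so the effect of AP20187 itself in that medium was not measured. The labels give neither the promoter of the construct nor whether the line is 1 clone, nor whether the 2 libraries of a group came from separate cultures. The p-values therefore speak only for how these libraries varied, and that variation may be technical.

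The values are transcript abundances scaled to a fixed total per library (TPM), which keep no sequencing depth, so the counting error of a gene is unknown and the spread between libraries is the only error available. Replicate libraries of the 4 MLKL groups correlated at 0.991 to 0.994 across genes on the log2 scale (genes are not independent replicates). Fibroblast markers were abundant, with a sum over 15 genes of 17930 and 17816 TPM in the calcium-free AP20187 libraries and 18031 and 18088 TPM in the untreated ones. The sum over 10 macrophage markers was 23.5 and 21.9 TPM with AP20187 and 26.8 and 25.6 TPM without, and that over 10 epithelial markers at most 4.19 TPM in any of the 4, with Epcam and Krt19 at 0. Mouse Mlkl stood at 64.8 and 62.2 TPM with AP20187 and 61.8 and 61.0 TPM without (log2 fold change 0.05, adjusted p = 0.698), which does not measure the human construct.

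Fold changes are differences of the mean of log2(TPM + 1) between AP20187 and untreated libraries (low genes change by more than this scale shows), given with the standard error (SE). A gene was called higher or lower at a Benjamini-Hochberg adjusted p under 0.05 in limma, over all genes tested. MLKL dimerization in calcium-free medium left 263 of 11574 tested genes higher (2.27%) and 396 lower (3.42%). The changes were small: the median absolute log2 fold change of the called genes was 0.25, and 4 of the higher and 2 of the lower genes reached a 2-fold change. In complete medium the same dimerization left 1838 of 11644 genes higher (15.8%) and 1919 lower (16.5%), and 170 and 29 of these reached a 2-fold change. All 263 and 396 genes had calcium-free AP20187 and untreated libraries that did not overlap, as had 51.5% of all tested genes, called or not. A lack of overlap given below for a called gene therefore adds no support to its call. In parental cells, AP20187 called 35 of 11504 genes (0.304%), 2 higher and 33 lower. Of these 35, 11 are named in the text: Neat1 (log2 fold change -0.45), Nr4a1 (-0.27), Nfkbia (-0.17), Cxcl1 (-0.58), Ccl2 (-0.41), Lif (-0.36), Ptgs2 (-0.32), Rgs16 (-0.23), Ctgf (-0.19) and Plk2 (-0.17) were lower in parental cells given AP20187, and Txnip (0.20) was higher. The complete-medium response is that of 1 experiment. Of 87 named genes that passed in it and were tested in siCTR and noko as well, 23 had a fold change of the other sign in at least 1 of them and 11 in both. The medians of all genes in siCTR and noko were -0.19 and -0.22.

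**Figure D1:**
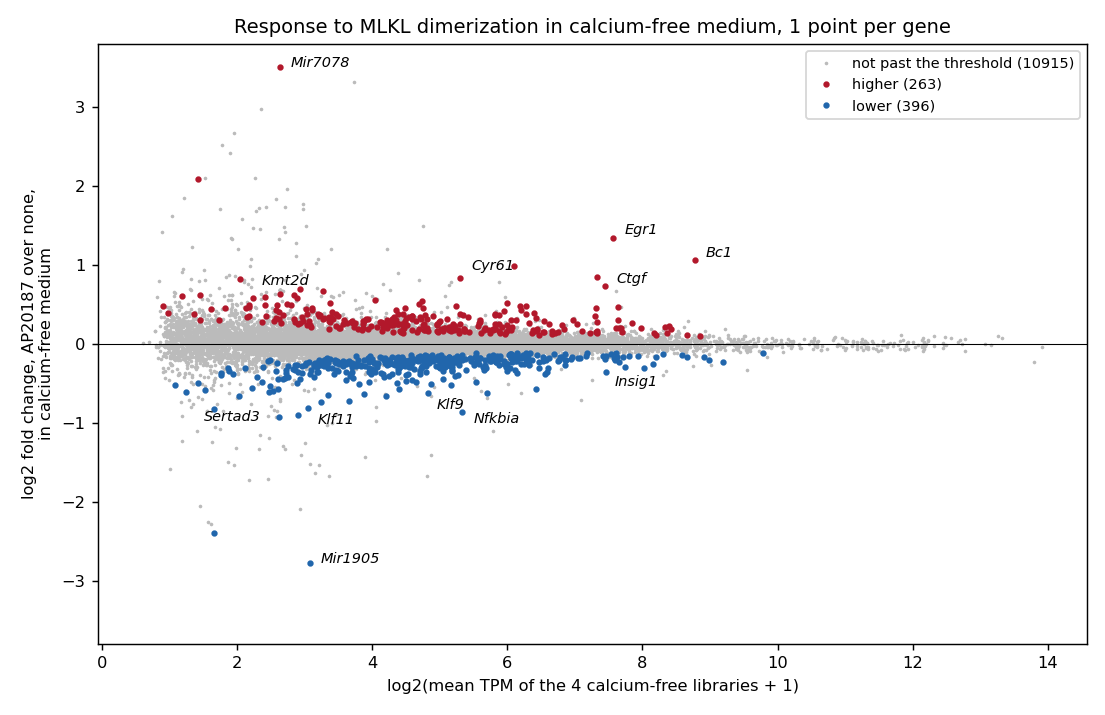
Log2 fold change of each of the 11574 tested genes in calcium-free medium, AP20187 over none (vertical), against log2 of the mean TPM of the 4 calcium-free libraries plus 1 (horizontal). The 263 higher genes (red) and 396 lower genes (blue) lie mostly close to 0, with Egr1 at 1.34, Cyr61 at 0.84 and Nfkbia at -0.87.

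The spread behind these calls was estimated over all 35 NIH3T3 libraries. Fitted on the 4 calcium-free libraries alone, with 2 residual degrees of freedom, 37 genes were higher and 38 lower. Of the genes named here, Egr1, Cyr61, Ctgf, Amotl2, Csf1, Rgs16, Kmt2d, Mdn1, Dst, Ubr4, Birc6, Ahnak, Dync1h1, Lrp1, Hspg2, Rbm10, Bc1, Mir7078 and Emc8-1190005i06rik were still called higher there. Nfkbia, Nr4a1, Nr4a2, Klf9, Klf10, Klf11, Sertad1, Sertad3, Tob1, Tob2, Bhlhe40, Phf13, Pdp1, Ccng2, Insig1, Txnip, Gadd45b, Hspa1b, Zfp367 and Neat1 were still called lower, as was the small RNA row Mir7022. Leaving out AP20187 replicate 1 gave 126 higher and 232 lower genes, AP20187 replicate 2 109 and 186, untreated replicate 1 112 and 161, and untreated replicate 2 130 and 215. A further alternative removed from each library the trend with transcript length of its log2 values relative to the gene means. It gave 246 higher and 667 lower genes, centring each library on its median 252 and 542, and quantile normalization 269 and 572.

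The promoters of 3 genes that carry the main contrast, a pair of YAP targets that rose and the NF-kB inhibitor gene that fell, are shown from 250 bases before to 50 after the annotated start (RefSeq, GRCm38.p6, 5′ to 3′ on the strand of the gene). Capitals mark the letters CATTCC in Cyr61 and Amotl2, the core bound by TEAD factors, and a kB motif in Nfkbia, the kind of element bound by NF-kB. Cyr61 is at chr3:145649936-145650235 (minus strand), Amotl2 at chr9:102717554-102717853 (plus strand) and Nfkbia at chr12:55492598-55492897 (minus strand).
Cyr61: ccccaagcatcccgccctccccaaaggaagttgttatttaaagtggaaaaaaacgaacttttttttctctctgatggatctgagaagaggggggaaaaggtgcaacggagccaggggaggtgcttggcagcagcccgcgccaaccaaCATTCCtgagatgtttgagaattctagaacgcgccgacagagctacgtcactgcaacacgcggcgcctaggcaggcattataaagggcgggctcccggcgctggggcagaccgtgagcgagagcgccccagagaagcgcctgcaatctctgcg
Amotl2: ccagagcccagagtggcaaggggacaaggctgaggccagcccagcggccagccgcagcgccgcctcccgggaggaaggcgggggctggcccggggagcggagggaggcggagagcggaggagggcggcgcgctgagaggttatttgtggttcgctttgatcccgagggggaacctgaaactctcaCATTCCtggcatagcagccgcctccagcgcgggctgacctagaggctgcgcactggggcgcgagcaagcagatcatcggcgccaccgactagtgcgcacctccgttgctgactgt
Nfkbia: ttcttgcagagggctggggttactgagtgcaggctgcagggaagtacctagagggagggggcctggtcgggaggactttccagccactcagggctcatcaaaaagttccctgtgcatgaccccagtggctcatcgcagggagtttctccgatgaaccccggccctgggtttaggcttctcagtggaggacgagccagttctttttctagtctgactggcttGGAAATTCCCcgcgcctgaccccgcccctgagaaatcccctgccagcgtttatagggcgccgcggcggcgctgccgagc
The marked letters begin 103, 65 and 29 bases before the start. Such letters are common: CATTCC on either strand was in the promoters of 33 of 207 higher genes with a RefSeq promoter (15.9%), 38 of 326 lower genes (11.7%) and 1285 of 9113 tested genes (14.1%). The kB motif was in 20 of 207 (9.66%), 32 of 326 (9.82%) and 1111 of 9113 (12.2%). These shares are descriptions of the windows and say nothing about binding.

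Among the immediate early genes, which are transcribed within minutes of a stimulus without new protein synthesis, Egr1 rose most. Egr1, a zinc finger transcription factor gene, was at 266 and 277 TPM with AP20187, against 105 and 108 TPM without, in calcium-free medium (log2 fold change 1.34, SE 0.07, adjusted p = 2.34e-11). The groups did not overlap, and both untreated libraries were far above those in complete medium, where Egr1 was at 825 and 908 TPM with AP20187 and 4.32 and 4.19 TPM without (log2 fold change 7.37). Untreated Egr1 was higher in calcium-free than in complete medium (log2 fold change 4.35). In all, 991 of 11587 genes were higher in untreated cells in calcium-free medium (8.55%) and 3214 lower (27.7%). After centring each library on its median these counts became 2447 and 1879.

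Fos, which encodes an AP-1 subunit, was at 7.66 and 7.70 TPM with AP20187 and 4.11 and 5.26 TPM without in calcium-free medium (log2 fold change 0.62, adjusted p = 0.000542), against 43.4 and 46.2 TPM with AP20187 and 0.674 and 0.835 TPM without in complete medium. Fosl1, another AP-1 gene, rose by 0.35 on the log2 scale (adjusted p = 0.00077). Jun (0.20) and Egr2 (0.49) also passed, with adjusted p = 0.0267 and 0.0135. Both calls depended on which libraries entered. Jun kept its call without AP20187 replicate 1. It lost the call without AP20187 replicate 2, untreated replicate 1 or untreated replicate 2 (log2 fold change 0.12, 0.18 and 0.22). Egr2 kept its call without AP20187 replicate 2. It lost the call without AP20187 replicate 1, untreated replicate 1 or untreated replicate 2 (0.43, 0.51 and 0.48). Of 26 tested immediate early genes, these 5 rose, 8 fell and 13 did not pass (median log2 fold change -0.05, against 0.02 over all genes). In complete medium 26 of 27 rose and 1 fell. Beside this list and those below, 2.27% of all tested genes rose and 3.42% fell in calcium-free medium. In complete medium these shares were 15.8% and 16.5%.

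All 8 that fell in calcium-free medium rose in complete medium, among them Fosl2 and Ier5. Csrnp1, a nuclear protein gene, was at 9.78 and 11.3 TPM with AP20187 and 16.3 and 17.4 TPM without (log2 fold change -0.63, adjusted p = 1.35e-05). In complete medium it was at 56.8 and 60.1 TPM with AP20187 and 8.51 and 8.17 TPM without (2.67). The orphan nuclear receptor genes Nr4a2 and Nr4a1 did the same. Nr4a2 was at 6.71 and 6.98 TPM with AP20187 and 10.8 and 11.9 TPM without in calcium-free medium (-0.65, adjusted p = 1.99e-08), against 1.16 in complete medium, and Nr4a1 was at 60.3 and 60.4 TPM with AP20187 and 75.1 and 76.9 TPM without (-0.33), against 1.56. Nr4a1 was also lower in parental cells given AP20187 in complete medium (-0.27, adjusted p = 0.0358). In each of these genes the calcium-free libraries of the groups did not overlap. The differences between the media were -3.30, -1.81 and -1.89 on the log2 scale. They passed the threshold, which calls of opposite sign in the same libraries all but fixed in advance.

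Ier3, a gene induced by NF-kB and ERK, fell by 0.30 on the log2 scale in calcium-free medium (adjusted p = 0.00304) and rose by 4.71 in complete medium. Its calcium-free call was lost without untreated replicate 2 (adjusted p = 0.0708) or AP20187 replicate 1 (0.0551). Mcl1, an anti-apoptotic Bcl2 family gene, fell by 0.35 (adjusted p = 0.000297). Fosb (log2 fold change 0.13), Junb (-0.05), Ier2 (0.28) and Zfp36 (-0.34), which encode AP-1 subunits, an early response protein and an mRNA decay factor, did not pass (adjusted p = 0.331, 0.808, 0.0648 and 0.0578).

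**Figure D2:**
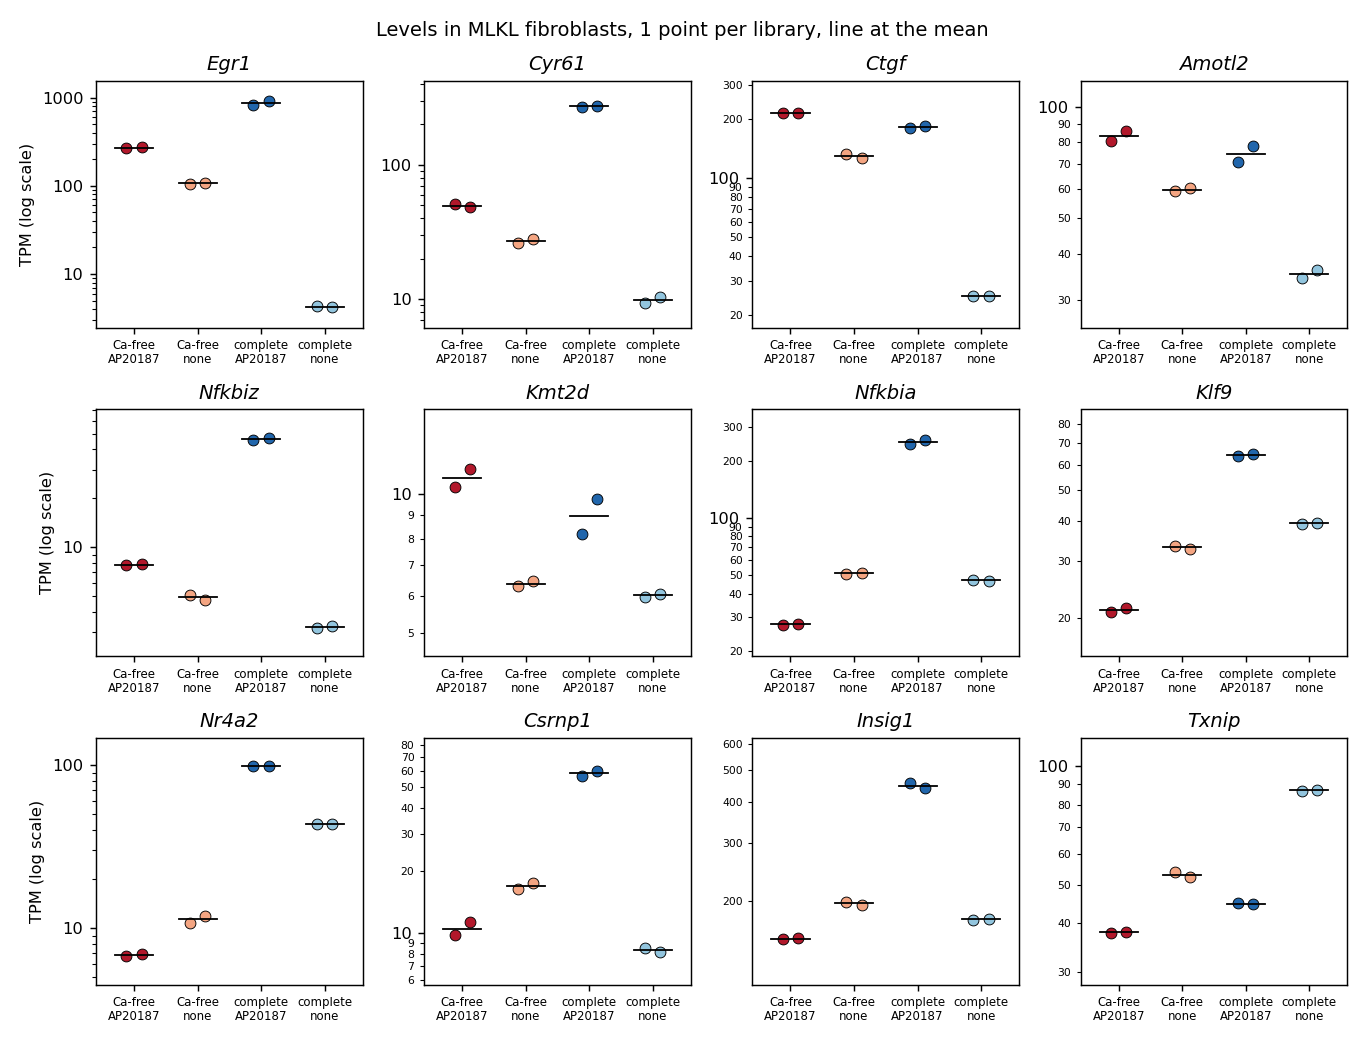
TPM of 12 genes (log axes) in the 8 libraries of MLKL cells, 1 point per library and a line at the mean of each pair, in the order calcium-free with AP20187, calcium-free without, complete with AP20187, complete without. The first 6 genes rise with AP20187 in both media, Nfkbia, Klf9, Nr4a2, Csrnp1 and Insig1 fall in calcium-free and rise in complete medium, and Txnip falls in both.

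Several of the larger rises were in targets of YAP, a co-activator that works through TEAD factors and responds to cell shape, tension and cell contact. Cyr61, the matricellular protein CCN1, was at 50.8 and 48.4 TPM with AP20187 and 26.3 and 28.2 TPM without (log2 fold change 0.84, SE 0.04, adjusted p = 4.96e-11). Ctgf, its relative CCN2, was at 216 and 217 TPM with AP20187 and 133 and 128 TPM without (0.73, SE 0.03, adjusted p = 5.39e-13). Amotl2, an angiomotin family gene whose product restrains YAP, was at 80.5 and 86.1 TPM with AP20187 and 59.0 and 60.1 TPM without (0.48, SE 0.05, adjusted p = 5.12e-06). None of these 3 overlapped between groups, and the levels of Ctgf and Amotl2 reached with AP20187 in calcium-free medium were above those of AP20187 libraries in complete medium (182 and 185 TPM, and 70.8 and 78.2 TPM), as were the untreated levels (25.1 and 25.2 TPM, and 34.4 and 36.1 TPM, in complete medium). The comparison of AP20187 levels between media was not tested. For the untreated levels it was, and it passed for both genes (log2 fold change 2.33 for Ctgf and 0.74 for Amotl2).

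Of 20 tested YAP and TEAD targets, 5 rose, 1 fell and 14 did not pass (median 0.10). The other 2 that rose were Ankrd1 (0.26, adjusted p = 0.00294), a muscle ankyrin repeat gene, and Thbs1 (0.21, adjusted p = 0.00523), which encodes thrombospondin 1. Ankrd1 lost its call without untreated replicate 2 (adjusted p = 0.0674), and so did Thbs1 without untreated replicate 2 (0.0507) or AP20187 replicate 2 (0.0574). Gadd45b, a stress gene also counted in the p53 list, fell (-0.36, adjusted p = 0.000113). In complete medium 14 of the 20 rose and 3 fell, with log2 fold changes of 4.64 for Cyr61, 2.82 for Ctgf and 1.06 for Amotl2. In siCTR and noko, also in complete medium, Ctgf instead had log2 fold changes of -2.42 and -1.71, Amotl2 of -2.05 and -1.74 and Ankrd1 of -0.06 and -0.66, while Cyr61 had 0.63 and 0.87.

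SRF, with its myocardin-related co-activators, drives actin and contractile genes. Of 22 tested SRF and actin targets 2 rose in calcium-free medium, both slightly, and none fell: the calponin gene Cnn2 (0.14, adjusted p = 0.00951) and the tropomyosin gene Tpm1 (0.10, adjusted p = 0.0198). Over all tested genes 2.27% rose. Cnn2 had adjusted p = 0.0750, 0.0513 and 0.120 without AP20187 replicate 1, AP20187 replicate 2 and untreated replicate 1, and Tpm1 missed the threshold without any 1 of the 4 (adjusted p = 0.0563 to 0.183). Srf itself (0.21, adjusted p = 0.0953), Acta2 (0.20, adjusted p = 0.0524) and Actb (0.08, adjusted p = 0.298) did not pass.

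A pair of growth factor genes rose slightly. Csf1, the macrophage colony stimulating factor, was at 218 and 222 TPM with AP20187 and 177 and 178 TPM without in calcium-free medium (log2 fold change 0.31, adjusted p = 2.25e-06). Hbegf, a ligand of the EGF receptor, was at 44.3 and 42.3 TPM with AP20187 and 31.7 and 34.3 TPM without (0.38, adjusted p = 0.000573). The groups did not overlap in either gene. Untreated levels were higher in calcium-free than in complete medium, by 0.58 for Csf1 and 2.13 for Hbegf on the log2 scale. In complete medium Csf1 was at 193 and 202 TPM with AP20187, and Hbegf at 87.1 and 83.4 TPM. The log2 fold changes with AP20187 in complete medium were 0.73 and 3.48. In siCTR and noko they were -0.21 and -0.50 for Csf1 and 2.17 and 1.52 for Hbegf.

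Lif, an interleukin-6 family cytokine, rose by 0.28 on the log2 scale (8.19 and 8.04 TPM with AP20187, 7.05 and 5.96 TPM without, adjusted p = 0.0237), against 4.34 in complete medium. Its call was lost without untreated replicate 2 (adjusted p = 0.290), AP20187 replicate 1 (0.117) or AP20187 replicate 2 (0.108). Csf1 and Lif were the 2 of 12 tested cytokine and chemokine genes that rose, and none fell. The chemokine genes Cxcl1 (0.16), Ccl2 (0.08) and Ccl7 (0.12) did not pass (adjusted p = 0.395, 0.443 and 0.409). In complete medium 11 of 13 rose, Cxcl1 by 4.84 and Ccl2 by 1.93.

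Id1, a BMP target that blocks differentiation factors, was at 31.5 and 29.7 TPM with AP20187 and 21.9 and 19.6 TPM without (0.54, adjusted p = 2.28e-05), against 0.34 in complete medium, and the difference between media did not pass for Id1 (0.20, adjusted p = 0.138). In siCTR and noko the log2 fold changes of Id1 were -0.27 and -0.85. Of 15 tested BMP and TGF-beta response genes, 3 rose, among them Id1 and Id3, and Id2 fell (-0.29, adjusted p = 0.000278). Over all tested genes 2.27% rose and 3.42% fell. Id3 (0.25, adjusted p = 0.0336) fell by 1.10 in complete medium, and its calcium-free call was lost whichever of the 4 libraries was left out (adjusted p = 0.0710 to 0.239).

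NF-kB is held in the cytoplasm by IkB proteins, and Nfkbia, which encodes IkB-alpha, is among its own fastest targets. Nfkbia had the smallest p-value of all falls, at 27.3 and 27.7 TPM with AP20187 and 50.7 and 51.4 TPM without in calcium-free medium (log2 fold change -0.87, SE 0.03, adjusted p = 5.39e-13). In complete medium it was at 244 and 255 TPM with AP20187 and 46.9 and 46.8 TPM without (2.39). The untreated level differed little between media (calcium-free over complete, log2 fold change 0.12), the AP20187 and untreated libraries did not overlap in either medium, and the difference between the responses was -3.26 on the log2 scale (adjusted p = 9.29e-22). In parental cells given AP20187 the log2 fold change of Nfkbia was -0.17 (adjusted p = 0.0335). Nfkbiz, a nuclear IkB protein gene, went the other way: it was at 7.77 and 7.82 TPM with AP20187 and 5.07 and 4.73 TPM without (0.58, adjusted p = 0.00083). These were the only 2 of 19 tested NF-kB genes that passed in calcium-free medium, against 11 of 20 in complete medium, all higher. Over all tested genes 5.69% passed in calcium-free medium, and 15.8% were higher in complete medium. Tnfaip3, the deubiquitinase A20, was at 1.3 and 1.25 TPM with AP20187 and 1.05 and 0.983 TPM without (0.17, adjusted p = 0.393).

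Genes that read out calcium and ERK signalling gave a mixed picture. Rcan1, a calcineurin inhibitor and an NFAT target, was at 18.5 and 17.8 TPM with AP20187 and 18.9 and 17.3 TPM without in calcium-free medium, with a log2 fold change of 0.00 (SE 0.06, adjusted p = 0.988), against 3.57 in complete medium. Its groups overlapped. Rgs16, a regulator of G protein signalling, was at 65.9 and 64.7 TPM with AP20187 and 50.5 and 50.3 TPM without (0.37, adjusted p = 8.82e-07), and Ptgs2, the inducible cyclooxygenase, was at 257 and 241 TPM with AP20187 and 210 and 205 TPM without (0.26, adjusted p = 0.00166). Both rose by over 4 on the log2 scale in complete medium (4.21 and 4.06). Of 19 tested calcium, NFAT and CREB responsive genes these 2 rose and 3 fell: Nr4a1, the clock repressor gene Nfil3 (-0.42, adjusted p = 7.85e-05) and the salt-inducible kinase gene Sik1 (-0.30, adjusted p = 0.00321, and 0.0995 without untreated replicate 1).

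Of 20 tested ERK feedback genes, Hbegf rose and 3 fell, all phosphatase genes: Dusp4 (-0.38, adjusted p = 0.00627), Dusp6 (-0.17, adjusted p = 0.00173) and Dusp7 (-0.20, adjusted p = 0.0115). Over all tested genes 2.27% rose and 3.42% fell. Dusp4 had adjusted p = 0.0627 without AP20187 replicate 2 and 0.108 without untreated replicate 1, and Dusp6 had adjusted p = 0.0533 without AP20187 replicate 2. Dusp7 had adjusted p = 0.161, 0.0572 and 0.0946 without AP20187 replicate 1, untreated replicate 1 and untreated replicate 2. In complete medium Dusp4 and Dusp6 rose by 1.82 and 3.58 and Dusp7 fell by 0.54. Of 23 tested calcium pumps, channels and sensors, 1 passed, near the 5.69% of all tested genes called either way. Micu2, a regulator of the mitochondrial calcium uniporter, was lower (-0.23, adjusted p = 0.00851). Its call was lost without AP20187 replicate 1, AP20187 replicate 2 or untreated replicate 1 (log2 fold change -0.23, -0.24 and -0.19).

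The Kruppel-like factors, zinc finger regulators of growth and metabolism, had 6 of 11 tested members lower in calcium-free medium, none higher and 5 that did not pass (median -0.23, against 0.02 over all genes), whereas 9 of 11 rose in complete medium and none fell. Klf9 was at 20.9 and 21.4 TPM with AP20187 and 33.6 and 32.8 TPM without (log2 fold change -0.62, SE 0.05, adjusted p = 2.88e-08). Klf11 was at 5.40 and 4.66 TPM with AP20187 and 9.13 and 9.95 TPM without (-0.81, adjusted p = 1.57e-05), and Klf10 at 20.7 and 19.1 TPM with AP20187 and 28.3 and 28 TPM without (-0.48, adjusted p = 2.32e-06). Klf4, a pluripotency factor also counted among immediate early genes, fell by 0.23 (adjusted p = 8.73e-05). The groups did not overlap in these 4 genes, and all 4 rose in complete medium, by 0.70, 0.69, 0.27 and 1.41. The differences between media were -1.32, -1.49, -0.76 and -1.64. Each passed the threshold, which calls of opposite sign all but fixed in advance.

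Cholesterol genes are governed by SREBP-2, and Insig1, whose product keeps SREBP in the endoplasmic reticulum, is one of its targets. Insig1 was at 153 and 154 TPM with AP20187 and 198 and 195 TPM without in calcium-free medium (log2 fold change -0.35, SE 0.03, adjusted p = 1.37e-08), and at 455 and 440 TPM with AP20187 and 174 and 176 TPM without in complete medium (1.35). The groups did not overlap in either medium. Hmgcs1 (-0.30) and Fdft1 (-0.16), enzymes of the mevalonate and squalene steps, also fell (adjusted p = 3.76e-05 and 0.00161), against rises of 1.39 and 0.51 in complete medium. In all, 7 of 21 tested cholesterol synthesis and uptake genes fell and none rose (median -0.10), against 17 of 21 higher and none lower in complete medium.

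**Figure D3:**
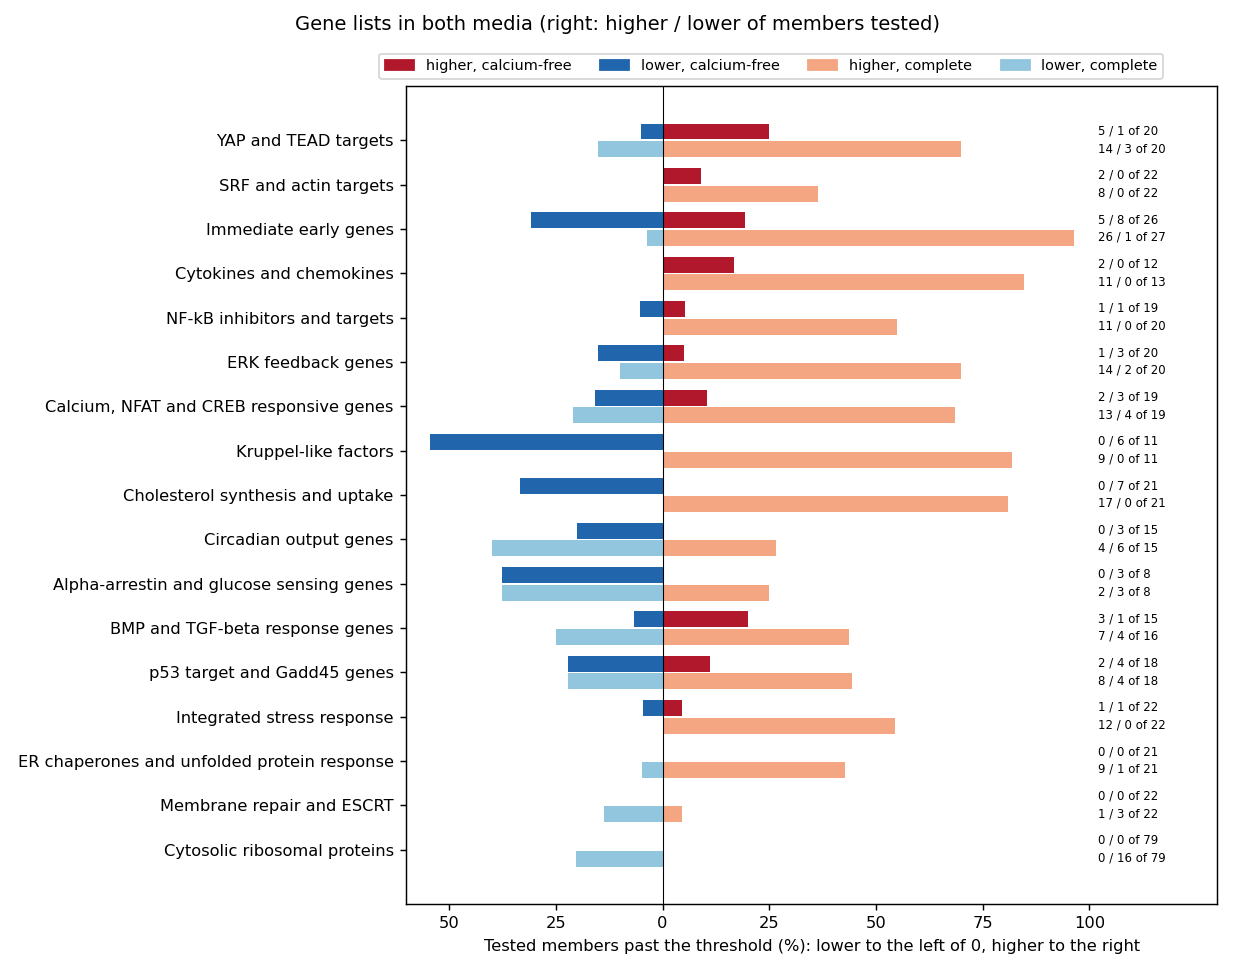
Share of the tested members of 17 gene lists that passed the threshold (horizontal, %), lower to the left of 0 and higher to the right, in calcium-free medium (upper bar of each pair) and complete medium (lower bar), with the counts at the right. Kruppel-like factors show 0 higher and 6 lower of 11 in calcium-free medium and 9 higher and 0 lower of 11 in complete medium.

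Several further regulators of growth and the clock fell. Sertad3, a co-regulator of E2F, was at 3.04 and 3.44 TPM with AP20187 and 7.68 and 6.46 TPM without (log2 fold change -0.93, SE 0.13, adjusted p = 0.000112). Tob2, an antiproliferative adaptor of mRNA deadenylation, was at 39.8 and 39.8 TPM with AP20187 and 60.6 and 62.7 TPM without (-0.62, SE 0.05, adjusted p = 1.05e-07). Bhlhe40, a clock-controlled repressor, was at 12.1 and 11.8 TPM with AP20187 and 16.7 and 17.5 TPM without (-0.48, SE 0.03, adjusted p = 9.32e-09). In families picked after their values were seen, 3 of 4 Sertad genes (Sertad1, Sertad3 and Sertad4), 3 of 5 Tob and Btg genes (Tob1, Tob2 and Btg1) and all 4 tested Nr4a and Csrnp genes fell, and none rose. Of 15 tested circadian genes, Bhlhe40, Cry2 (-0.33) and Nr1d1 (-0.22) fell and none rose, where Cry2 had adjusted p = 0.0959 without AP20187 replicate 2 and Nr1d1 had 0.158 without AP20187 replicate 2 and 0.133 without untreated replicate 2.

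Some falls were seen in both media. Txnip, the thioredoxin-binding glucose sensor, was at 37.7 and 37.9 TPM with AP20187 and 53.9 and 52.2 TPM without (-0.48, adjusted p = 1.54e-07), against -0.94 in complete medium. Pdp1, a phosphatase that activates pyruvate dehydrogenase, was at 6.45 and 5.75 TPM with AP20187 and 11.4 and 10.3 TPM without (-0.74, adjusted p = 2.63e-08), against -0.77. Ccng2, a cyclin linked to cell cycle exit, was at 14.0 and 12.5 TPM with AP20187 and 20.8 and 22.1 TPM without (-0.65, adjusted p = 5.86e-07), against -0.56. The difference between media passed for Txnip (0.46) and not for Pdp1 (0.03, SE 0.08, adjusted p = 0.813) or Ccng2 (-0.10, SE 0.09, adjusted p = 0.465). In siCTR and noko the log2 fold changes were -1.47 and -1.11 for Txnip, -0.07 and -0.48 for Pdp1, and 1.56 and 1.87 for Ccng2, so the complete-medium sign of Ccng2 differed between experiments.

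Other genes fell in calcium-free medium while their response in the complete-medium experiment lay within 0.2 of 0 on the log2 scale and did not pass. Hspa1b, an inducible Hsp70 gene, was at 15.6 and 16.2 TPM with AP20187 and 24.7 and 23.7 TPM without (-0.58, adjusted p = 0.000116), against -0.12 in complete medium. Bach1, a repressor of heme-responsive genes, was at 9.85 and 8.82 TPM with AP20187 and 13.2 and 13.1 TPM without (-0.45, adjusted p = 1.05e-06), against 0.04. Their difference between media passed (-0.46 and -0.49). Slc30a1, a zinc exporter gene, was at 2.31 and 2.01 TPM with AP20187 and 4.41 and 3.6 TPM without (-0.66, adjusted p = 5.02e-05), against 0.03. In siCTR and noko the log2 fold changes were 1.65 and 0.61 for Slc30a1, -0.31 and 1.11 for Hspa1b, and 0.23 and 0.39 for Bach1. Phf13, a chromatin reader gene, differed in that its small complete-medium rise passed: it fell by 0.72 on the log2 scale in calcium-free medium (adjusted p = 1.37e-08) and rose by 0.19 in complete medium (0.79 in siCTR and 1.01 in noko).

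Among genes that were higher in calcium-free and lower in complete medium and had at least 5 TPM in the higher group, the RNA-binding protein gene Rbm10 had the largest calcium-free change, at 31.9 and 32.8 TPM with AP20187 and 24.9 and 25.1 TPM without (0.36, adjusted p = 0.000226), against -0.42 in complete medium, -0.67 in siCTR and -0.99 in noko.

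Across the 11433 genes tested in both media, 111 were higher in both, which is 42.2% of the 263 and 6.04% of the 1838. Another 43 were higher in calcium-free and lower in complete medium (16.3% of the 263), and 106 passed in calcium-free medium and not in complete (40.3%). Of all genes tested in complete medium, 15.8% were higher and 16.5% lower. The 16.3% is thus near the share of all genes and does not mark out a class of reversed genes. Of the 396 lower genes, 99 were lower in both (25%), 144 were lower in calcium-free and higher in complete medium (36.4%) and 151 did not pass in complete medium (38.1%). The 144 had a median log2 fold change of -0.24 in calcium-free and 0.39 in complete medium. The test of the difference between the responses, fitted over both media, passed for 1281 of 11785 genes with the larger value in calcium-free medium (10.9%) and 1313 with the smaller (11.1%). It passed for all 43 and all 144 genes of opposite sign, for 41 of the 111 higher in both and for 20 of the 99 lower in both. For genes already called in both media with opposite sign a pass was all but fixed in advance, so it adds no support to them.

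**Figure D4:**
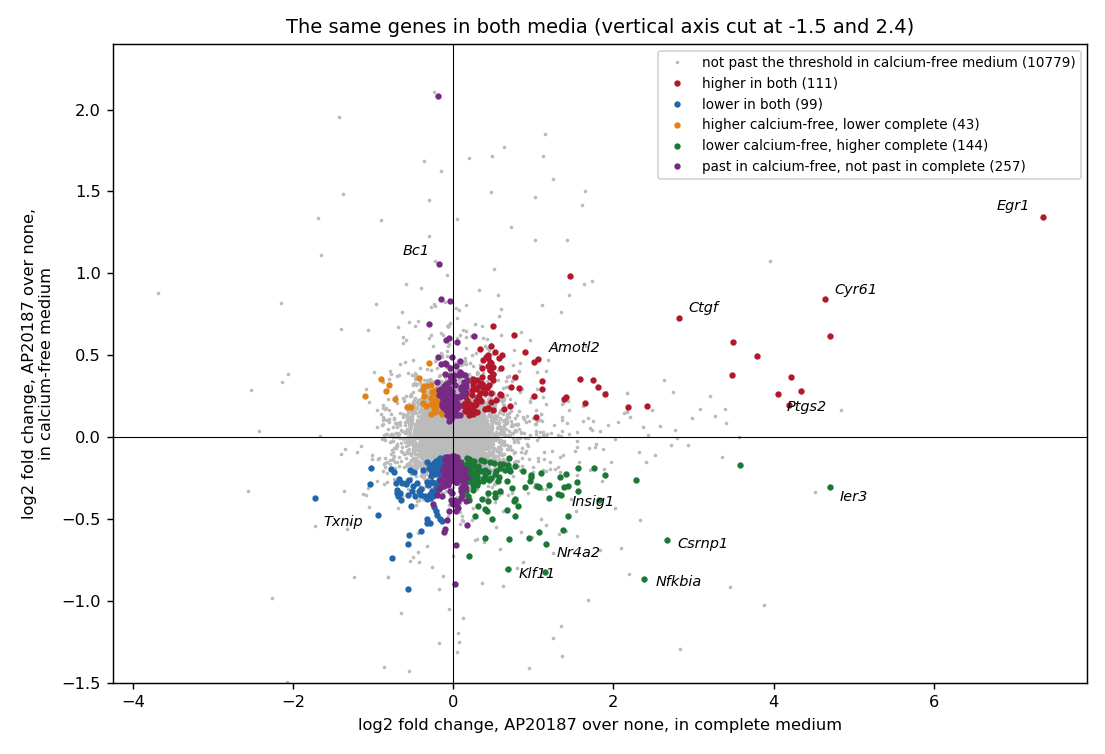
Log2 fold change with AP20187 in calcium-free medium (vertical) against that in complete medium (horizontal) for the 11433 genes tested in both; 14 genes lie outside the vertical range of -1.5 to 2.4. Egr1, at 7.37 in complete medium, sits furthest right of the genes higher in both (red, 111), which also hold Fos at 4.71, Cyr61 at 4.64 and Ctgf at 2.82. Nfkbia and Csrnp1 lie among the 144 genes lower in calcium-free and higher in complete medium (green).

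A further set of rises, seen in calcium-free medium and in the complete-medium experiment beside it, was made up of genes with very long transcripts. Of 107 tested genes whose longest annotated transcript exceeds 12 kb, 29 were higher (27.1%) and 2 lower, with a median log2 fold change of 0.09, against 0.24 in complete medium and -0.07 in parental cells given AP20187. Genes with transcripts up to 1 kb gave 9 higher of 782. Of the 29, 28 were also higher in complete medium, and the difference between media passed for 4 of them. None was called higher in parental cells, where only 2 of 11504 genes were, so that count is no contrast. All 29 had log2 fold changes below 0 in parental cells (-0.02 to -0.21). In the other complete-medium experiments 16 of the 29 were above 0 in siCTR (median 0.07) and 3 of the 29 in noko (median -0.20). All 107 had medians of -0.04 and -0.21 there. These genes, other than Kmt2d and Mdn1, were picked after their values were seen. When the trend with length was removed from each library, 24 of the 107 were higher and 7 lower (median 0.01). The part of transcript length in these rises was otherwise not tested.

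Kmt2d, a histone H3 lysine methyltransferase, was at 10.3 and 11.3 TPM with AP20187 and 6.31 and 6.47 TPM without in calcium-free medium (log2 fold change 0.68, SE 0.08, adjusted p = 6.42e-06), against 0.50 in complete medium. Mdn1, a ribosome assembly ATPase, was at 18.7 and 18.5 TPM with AP20187 and 12.6 and 12 TPM without (0.56, SE 0.05, adjusted p = 6.53e-07), against 0.48. The difference between the media did not pass for either (0.18, adjusted p = 0.249, and 0.08, adjusted p = 0.478). In siCTR and noko Kmt2d had 0.15 and -0.18, and Mdn1 0.10 and -0.31. The ubiquitin ligase genes Ubr4 (0.50) and Birc6 (0.45), the nuclear envelope linker genes Syne1 (0.49) and Syne2 (0.50), the plakin gene Dst (0.46), the scaffold gene Ahnak (0.43) and the dynein heavy chain gene Dync1h1 (0.42) rose too, against 0.61, 0.47, 0.40, 0.43, 0.45, 0.50 and 0.60 in complete medium. The endocytic receptor gene Lrp1 (0.46) and the perlecan gene Hspg2 (0.52) rose less than in complete medium (1.01 and 0.90), and their difference passed (-0.55 and -0.38). Neat1, a long nuclear RNA that builds paraspeckles, was among the 2 long transcripts that fell, at 235 and 231 TPM with AP20187 and 291 and 284 TPM without (-0.30, adjusted p = 5.98e-07). In parental cells, which lack the construct, Neat1 was also lower with AP20187 (-0.45, adjusted p = 5.78e-09), and its log2 fold changes in siCTR and noko were 0.43 and -0.16.

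**Figure D5:**
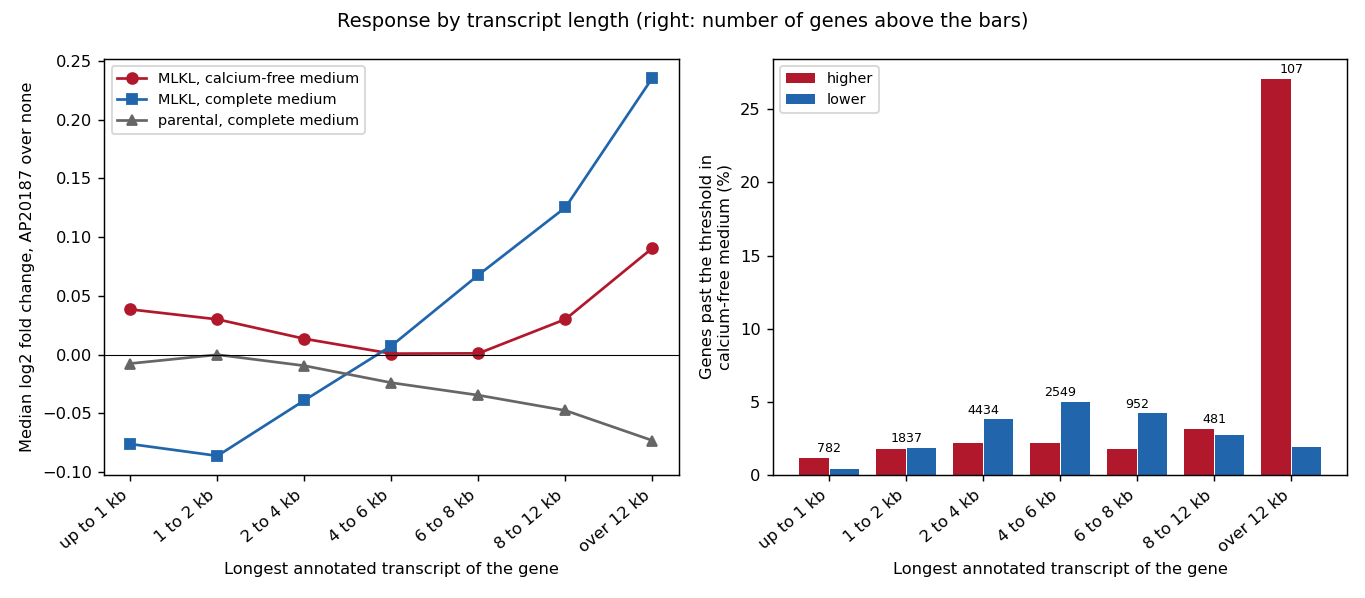
Left, median log2 fold change with AP20187 over none by the longest annotated transcript of the gene, for MLKL cells in calcium-free (circles) and complete medium (squares) and parental cells in complete medium (triangles). Right, share of genes called higher and lower in calcium-free medium in each length class, with the number of genes above the bars; 27.1% of genes over 12 kb were higher.

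Other large changes by fold rested on lowly expressed genes. The sperm membrane protein gene Spaca6 was at 9.47 and 7.38 TPM with AP20187 and 5.39 and 4.28 TPM without (log2 fold change 0.69, adjusted p = 0.00389), and the RNA-binding protein gene Msi1 at 5.31 and 5.40 TPM with AP20187 and 3.39 and 3.05 TPM without (0.59, adjusted p = 0.0111). Neither passed in complete medium (-0.30, adjusted p = 0.108, and -0.09, adjusted p = 0.672). Spaca6 lost its calcium-free call without AP20187 replicate 1 (adjusted p = 0.0796) or untreated replicate 2 (0.0766), and Msi1 without AP20187 replicate 1 (0.0582), AP20187 replicate 2 (0.0831) or untreated replicate 2 (0.0980). Raet1d, which encodes a ligand of a natural killer cell receptor, was at 5.27 and 3.23 TPM with AP20187 and 9.06 and 8.15 TPM without (-0.90, adjusted p = 0.00676), with adjusted p = 0.165 without AP20187 replicate 2 and 0.0830 without untreated replicate 1. Plekhf1, a lysosome-associated adaptor gene, was at 3.72 and 3.40 TPM with AP20187 and 5.38 and 6.48 TPM without (-0.60, adjusted p = 0.000776), against -0.56 in complete medium. The groups did not overlap in any of these 4 genes, which holds for every called gene and for 51.5% of all tested genes.

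Small and unusual rows made up most of the 2-fold changes on the log2(TPM + 1) scale. The microRNA row Mir7078 was at 9.36 and 11.4 TPM with AP20187 and listed at 0 without, and Emc8-1190005i06rik, a readthrough row, at 2.46 and 4.20 TPM with AP20187 and listed at 0 without. The brain cytoplasmic RNA Bc1 was at 567 and 618 TPM with AP20187 and 252 and 319 TPM without (log2 fold change 1.06, adjusted p = 0.0201), and lost its call without AP20187 replicate 1 (adjusted p = 0.0719), AP20187 replicate 2 (0.142) or untreated replicate 1 (0.190). Mir1905 was at 0 and 3.21 TPM with AP20187 and 11.9 and 14.5 TPM without, and had adjusted p = 0.182, 0.0603 and 0.0774 without AP20187 replicate 1, untreated replicate 1 and untreated replicate 2. Mir7022 was listed at 0 with AP20187 and at 4.05 and 4.48 TPM without, and had adjusted p = 0.122 and 0.154 without AP20187 replicate 1 and replicate 2. Snora28, a small nucleolar RNA row, had a log2 fold change of 0.98 (adjusted p = 0.0285) and lost its call without AP20187 replicate 1 (adjusted p = 0.0896), AP20187 replicate 2 (0.168) or untreated replicate 1 (0.302). Rpl37rt, a row that resembles a ribosomal protein gene and may share reads with it, had 0.84 (adjusted p = 0.0427) and lost its call without the same 3 libraries (adjusted p = 0.117, 0.214 and 0.556). Polyadenylated RNA libraries are not made to measure such short RNAs. Egr1 is the only gene with a 2-fold change on this scale among the other rows. In TPM, Sertad3 (mean 3.24 with AP20187 and 7.07 without) and Raet1d (4.25 and 8.60) also reached 2-fold.

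Several lists held no call in calcium-free medium, where 5.69% of all tested genes were called, so that a list of about 20 genes with none is near that background. None of 22 tested membrane repair and ESCRT genes, 21 endoplasmic reticulum chaperone and unfolded protein genes, 79 cytosolic ribosomal protein genes, 20 hypoxia and glycolysis genes, 18 integrin, cadherin and adhesion genes or 12 fatty acid genes passed (limma). At an unadjusted p under 0.05 (limma) these 6 lists gave 0, 1, 3, 1, 0 and 5 genes, against 2217 of all 11574 tested genes. The share was above that of all genes in the fatty acid list and below it in the others, which was not tested further. The chaperone genes Hspa5 (0.02) and Calr (-0.00) had standard errors of 0.04 and 0.03, against rises of 0.50 and 0.18 in complete medium. By contrast, of 18 p53 target and Gadd45 genes, 2 rose, among them the kinase gene Plk2 (0.25, adjusted p = 1.85e-05), and 4 fell, among them the cyclin-dependent kinase inhibitor gene Cdkn1a (-0.31, adjusted p = 0.000107). In the integrated stress response list of 22 tested genes, Ppp1r15a, a phosphatase regulator, was higher (0.18, adjusted p = 0.0463) and Ddit3, the factor CHOP, lower (-0.29, adjusted p = 0.0427), against 2.18 and 1.19 in complete medium, where 12 rose and none fell. Ppp1r15a lost its calcium-free call without any 1 of the 4 libraries (adjusted p = 0.151 to 0.202), and Ddit3 without AP20187 replicate 2 (0.389) or untreated replicate 1 (0.380). In the necroptosis and pyroptosis list, 1 of 8 tested genes passed: the kinase gene Ripk1 was at 18.1 and 17.0 TPM with AP20187 and 23.0 and 21.4 TPM without (-0.32, adjusted p = 0.00316), with adjusted p = 0.0621 without AP20187 replicate 2 and 0.0740 without untreated replicate 1.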

How the data were processed

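Polyadenylated RNA of NIH3T3 cells was sequenced, and the authors deposited 1 table of gene-level TPM values for the mouse libraries (19407 genes, 35 NIH3T3 libraries in 18 groups). Per the submitters' processing notes, Salmon and the build mm10 were used; neither versions nor strand settings were stated there. TPM carries no depth, so no count test was possible. Per the labels, each of the groups compared holds 2 libraries.

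Values were transformed to log2(TPM + 1) and fitted with limma 3.58.1 (trend, empirical Bayes) in R 4.3.3, with 1 mean per group and the spread shared over the 35 libraries. Genes entered a comparison with 1 TPM or more in at least 2 of its libraries, and p-values were Benjamini-Hochberg adjusted over all genes tested in it. The difference of responses is the interaction of medium and AP20187. On simulated data with known changes in the calcium-free comparison (11542 genes), 95.4% of 1.5-fold, 92.4% of 2-fold and 98.5% of 4-fold changes were recovered. There were 6 false calls (3.11% of calls). Changes as small as the median called one (0.25 on the log2 scale) were not simulated. Each gene was given the same spread in every group, as the fit assumes, so the simulation cannot examine that assumption.

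The genes named were the 15 largest rises and falls of called genes with at least 5 TPM in the higher group and groups that did not overlap, up to 4 called members of each list by p, a fixed set of response genes, and the 6 largest of each class of agreement between media; not all of them are described, and some genes are not reported here. The members and lists were chosen with earlier results of these data known. Fosl1, Fosl2, Ier5, Mcl1, Thbs1, Sik1, Sertad1, Sertad4, Tob1, Btg1, Mir7022, Emc8-1190005i06rik and the long genes other than Kmt2d and Mdn1 were picked after their values were seen. Transcript lengths came from the mm10 annotation and promoters from RefSeq. Alternatives were the pseudocount, scaling, filters, the libraries in the fit, the replicate block, small RNA rows, transcript length and each library left out.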

Additional observations from a re-analysis of the deposited data

Results flagged for a closer look

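The response to AP20187 differed between media for 2594 of 11785 genes tested, where the difference itself (calcium-free minus complete medium, on the log2 scale) passed the threshold in limma: 1281 had the higher value in calcium-free medium and 1313 the lower. Of the 104 genes named in the results, 77 passed, 64 below 0 and 13 above. A difference compares fold changes and not levels, and untreated levels also differed between media. Calcium-free over complete medium, untreated Egr1 had a log2 fold change of 4.35, Hbegf of 2.13, Fos of 1.69 and Ptgs2 of 1.36. Untreated Nr4a2 (-1.86) and Nr4a1 (-1.46) were lower.

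The differences below 0 were widest in genes of the early and inflammatory response. For immediate early genes they were -6.02 for Egr1, -5.01 for Ier3, -4.85 for Zfp36, -4.09 for Fos, -4.0 for Jun, -3.30 for Egr2, -3.30 for Csrnp1, -3.14 for Fosb, -2.77 for Junb and -2.47 for Ier2. Smaller ones of this kind were -1.89 for Nr4a1, -1.82 for Ier5, -1.81 for Nr4a2, -1.66 for Mcl1, -1.64 for Klf4, -1.40 for Fosl1 and -0.64 for Fosl2. For cytokine, NF-kB and secreted factor genes they were -4.68 for Cxcl1, -4.06 for Lif, -3.26 for Nfkbia, -3.09 for Hbegf, -2.92 for Nfkbiz, -2.91 for Tnfaip3, -1.86 for Ccl2, -1.57 for Ccl7 and -0.42 for Csf1. For calcium, ERK and stress genes they were -3.84 for Rgs16, -3.79 for Ptgs2, -3.75 for Dusp6, -3.57 for Rcan1, -2.20 for Dusp4, -2.0 for Ppp1r15a, -1.48 for Ddit3, -1.22 for Nfil3, -1.16 for Plk2, -1.05 for Cdkn1a and -0.57 for Ripk1.

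Among YAP targets the differences were -3.8 for Cyr61, -2.09 for Ctgf, -1.63 for Ankrd1, -1.44 for Thbs1 and -0.58 for Amotl2. Untreated Cyr61 (log2 fold change 1.38), Ctgf (2.33) and Amotl2 (0.74) were higher in calcium-free than in complete medium. Of 20 tested YAP and TEAD targets, 9 were higher and 4 lower in that comparison. Among cholesterol genes they were -1.70 for Insig1, -1.69 for Hmgcs1 and -0.67 for Fdft1. Among Kruppel-like, clock and growth regulator genes they were -1.49 for Klf11, -1.32 for Klf9, -1.31 for Nr1d1, -1.25 for Bhlhe40, -1.22 for Btg1, -1.15 for Sertad1, -1.01 for Tob2 and -0.76 for Klf10. The remaining differences below 0 were -0.92 for Phf13, -0.92 for Raet1d, -0.82 for Zfp367, -0.69 for Slc30a1, -0.55 for Lrp1, -0.49 for Bach1, -0.48 for Hspa5, -0.46 for Hspa1b, -0.38 for Hspg2, -0.18 for Calr and -0.11 for Neat1.

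The differences above 0 were 0.14 for Tpm1, 0.33 for Gadd45b, 0.34 for Dusp7, 0.46 for Txnip, 0.68 for Msi1, 0.75 for Id2, 0.78 for Rbm10, 0.99 for Spaca6, 1.00 for Rpl37rt, 1.24 for Bc1, 1.35 for Id3, 2.28 for Emc8-1190005i06rik and 3.50 for Mir7078. Gadd45b, Dusp7, Txnip and Id2 are above 0 because they fell less in calcium-free than in complete medium.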

How the results depend on the processing

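With 2 libraries per group, which library enters decides many calls. The calcium-free counts were 109 to 130 higher and 161 to 232 lower with 1 of the 4 libraries left out (the remaining lone library is assumed to vary like the other groups), and 37 and 38 with the spread taken from the 4 libraries alone. The complete-medium counts were 1275 to 1540 higher and 1131 to 1627 lower with 1 library left out, and 1109 and 978 on its own libraries. The difference of responses had 833 to 1340 genes with the higher value in calcium-free medium, fewest without complete-medium AP20187 replicate 1. The parental counts became 1 and 4 on their own libraries, and 4 higher under quantile normalization. In untreated cells, 1959 genes were higher in calcium-free medium under quantile normalization, and 2447 were higher and 1879 lower after median centring. Removing the trend with transcript length gave 667 lower genes in calcium-free medium and turned Kcnq1ot1, a long noncoding RNA, to -0.13. With these exceptions, the cause of which was not tested, the counts of higher and of lower genes in the 5 comparisons stayed within 1.5 times the reported ones under the other alternatives. Replicate numbers did not pair the libraries (correlation of same-numbered deviations across genes -0.05 in calcium-free and -0.02 in complete medium, 2 pairs), and the replicate block gave 265 higher and 403 lower genes in calcium-free medium. Depth is unknown in TPM, so the precision of low genes cannot be given.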
